A study of Mus musculus with 8 samples.

Results

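Mesendoderm and Nodal signalling genes were followed across neural cultures, 10 in all: T, Mixl1, Gata4, Gata6, Foxa2, Sox17, Cer1, Lefty1, Lefty2 and Nodal. They were taken by gene name from the probes of the array, with 1 value per gene from the probe of highest mean signal. All 10 were found, on 12 probes, and 9 of them were among the 27255 genes that could be tested in the series. RNA came from neurospheres, which are neural progenitor cells growing as floating balls, and was read on 8 single-colour arrays. The cells descend from EB3, an embryonic stem cell line of the mouse. All groups passed through embryoid bodies made with Noggin, an inhibitor of BMP signals, which were dissociated on day 6, infected with lentivirus (about 25 particles per cell) and cultured with FGF2 at 20 ng/ml. Primary neurospheres (P0) were taken after 6 days, and tertiary ones (P2) were regrown from them. At each passage 4 vectors were used: a control shRNA against firefly luciferase, a control miRNA, miR-17, and an shRNA construct labelled shNr2f1/2, which is directed at Nr2f1 and Nr2f2. The control miRNA is directed against lacZ, a bacterial gene. Each of the 8 groups had 1 array from 1 cell line, and independence of the cultures is not stated, so p-values measure only the spread among these arrays.

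Mesendoderm is the early embryonic cell population from which mesoderm and endoderm arise at the primitive streak. Nodal, a TGF-beta family ligand, signals through activin receptors and an EGF-CFC coreceptor to Smad2, Smad3, Smad4 and Foxh1, and it switches on streak and endoderm genes. It also switches on Lefty1 and Lefty2, secreted proteins that block Nodal itself, so the pathway carries its own brake. In embryonic stem cells that are turned toward neural fate, Nodal signals are normally low, and Nodal and BMP inhibitors favour neural differentiation. Foxa2 has a second site of expression in the neural tube, where it marks the floor plate, the ventral midline source of Sonic hedgehog.

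The miRNA delivered to the cultures is shown with its seed, bases 2 to 8 from the 5′ end, in capitals, because the seed is the part that pairs with target transcripts. It is set beside 2 miRNAs of embryonic stem cells with a seed offset from it by 1 base. The miR-302 family is known for repressing Lefty transcripts in early vertebrate embryos.
mmu-miR-17-5p: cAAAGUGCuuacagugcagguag
mmu-miR-302d-3p: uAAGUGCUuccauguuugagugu
mmu-miR-294-3p: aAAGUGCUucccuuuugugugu
The seed of miR-17-5p reads AAAGUGC and that of the others AAGUGCU. The longest run of bases shared with miR-17-5p is 8 for miR-302d-3p and 9 for miR-294-3p. Among mature mouse miRNAs in RefSeq (GRCm38.p6), 7 carry the miR-17 seed. Its 7-base match, GCACTTT, lay in 0 of the 12 probes of the 10 genes and in 0.386% of all 55681 probes. This covers the probe letters alone, not the transcripts they read.

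Neural progenitor genes were present throughout, and much of the mesendoderm set was not. All 10 genes of a neural progenitor list, among them Sox1, Sox2, Nes and Fabp7, were well above background on all 8 arrays. Of the 10 mesendoderm and Nodal genes, 5 were well above background on every array (T, Foxa2, Nodal, Lefty1 and Lefty2). On the probes used, Gata4, Gata6 and Sox17 were so on 5 arrays, Mixl1 on 2 and Cer1 on 1. The other 9 could be tested, while Cer1 was left out by the filter, which asked for 2 arrays. Levels below are log2 values relative to the array's 75th percentile, and a level not well above background is called dim. In a mixed culture, fewer cells of a type and less RNA per cell cannot be told apart. Between arrays, 57.9% to 67.9% of spots were well above background and none was saturated.

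**Figure D1:**
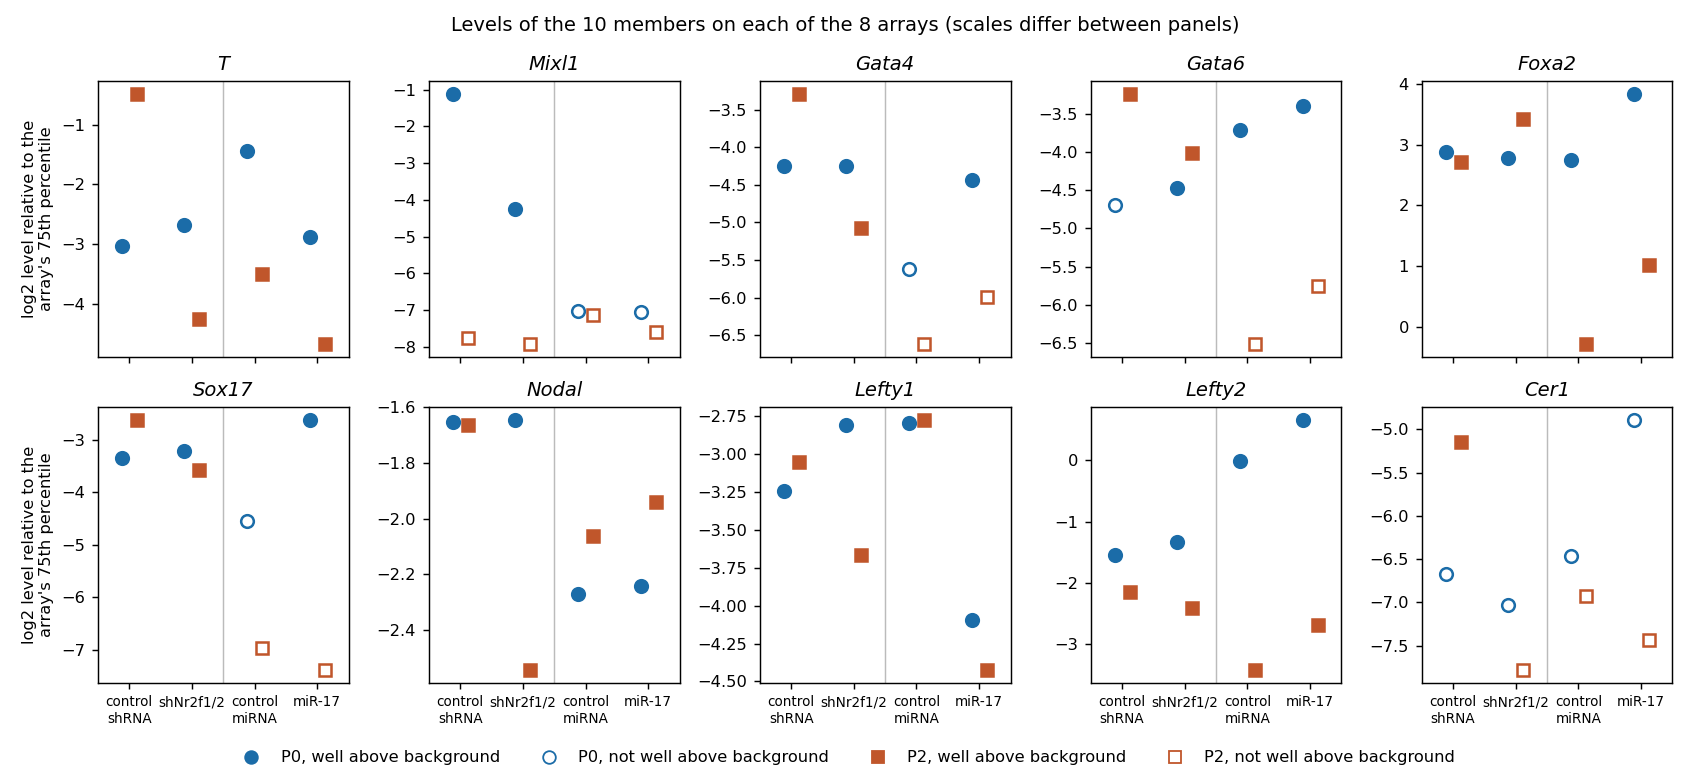
Level of each of the 10 genes (log2, relative to the array's 75th percentile) on the 8 arrays, by vector, with circles for P0 and squares for P2, 1 array per point and open symbols for dim values. The vertical scales differ between panels, and the line separates shRNA from miRNA vectors. Mixl1 has filled symbols on the shRNA arrays at P0 alone, and the miRNA arrays at P2 hold the lowest points of Foxa2 and Lefty2.

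T (Brachyury), the T-box factor of the primitive streak and notochord, was read by a probe on chromosome 17 at 8635302 to 8635361 (mm9). At P0 its level was -3.03 with the control shRNA, -2.68 with shNr2f1/2, -1.44 with the control miRNA and -2.87 with miR-17. At P2 the same order of vectors gave -0.48, -4.26, -3.51 and -4.67. The control shRNA array at P2 held the highest T level of the series, and the passages overlapped because of it.

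Mixl1, a homeobox factor induced by Nodal in the streak, was read on chromosome 1 at 182624310 to 182624369. Its level was -1.10 with the control shRNA and -4.23 with shNr2f1/2 at P0, and these were the only arrays on which it was well above background. It was dim on the other 6, at -7.03 and -7.05 on the miRNA arrays at P0 and between -7.93 and -7.13 at P2. Against the 2 miRNA arrays at P0 the mean of the shRNA arrays was at least 4.62-fold higher, and against the shRNA arrays at P2 at least 8.11-fold. These bounds set the mean of the bright arrays against the lowest signal that counted as well above background on the dim ones. Where the probe's own signal was higher, it was used instead. For Mixl1 the bright mean joins 2 conditions that differed 8.76-fold, with the control shRNA the higher. Mixl1 passed the filter only through these 2 arrays, so its bounds describe levels and are not read as differences between vectors or passages.

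Detection on both shRNA arrays at P0 and nowhere else was found for 18 of 27255 genes (0.066%) on the probes used, a set looked up after the Mixl1 levels were seen. It holds Afp, the alpha-fetoprotein of visceral endoderm and liver, and Dppa4, a gene of pluripotent cells. Afp stood at -2.75 and -2.92 on those arrays, and Dppa4 at -3.91 and -3.96. Other genes of the same lists were lower on the control miRNA than on the control shRNA array at P0 too, namely Ttr, a thyroid hormone carrier of visceral endoderm (5.53-fold), Dppa5a (13.2-fold) and Zfp42 (7.21-fold), both of pluripotent cells. With dim values taken as bounds, 5 of 12 pluripotency genes and 3 of 12 measured endoderm genes were at least 2-fold lower there, beside 4.29% of all genes. Afp is among the endoderm genes counted. It passed the filter only through the shRNA arrays at P0, where it is high, so its place in this count is not read. Going the other way, 2 of the 12 pluripotency genes and 1 of the 12 endoderm genes were at least 2-fold higher, beside 13.1%. The lists were thus not uniformly lower. The part of pluripotent or visceral endoderm cells in the Mixl1 difference was not tested. Mixl1 itself was 8.76-fold lower with shNr2f1/2 at P0, while Afp differed by -0.16 log2 units and Dppa4 by -0.05.

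**Figure D2:**
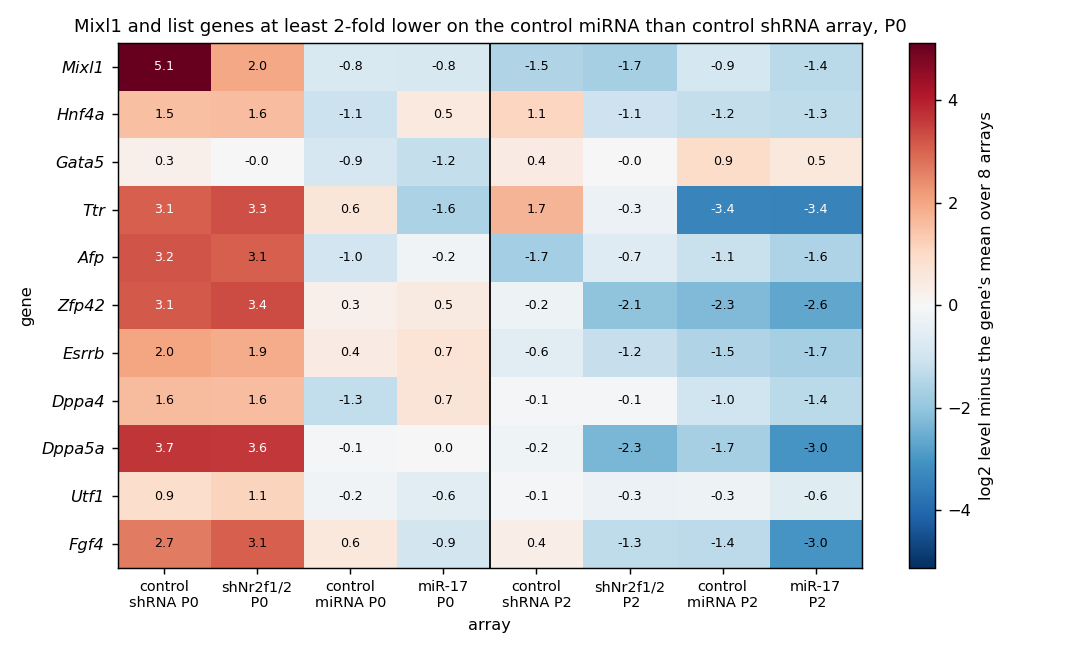
Level of Mixl1 and of endoderm and pluripotency list genes that were at least 2-fold lower on the control miRNA than on the control shRNA array at P0, as log2 level minus the gene's mean over the 8 arrays (columns; the black line separates P0 from P2). Mixl1, Afp and Dppa5a have their highest values in the 2 shRNA columns at P0; the genes were chosen by the difference between columns 1 and 3.

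Foxa2, a forkhead factor of endoderm, notochord and floor plate, was well above background on all arrays. Its probe lies on chromosome 2 at 147868669 to 147868728. The P0 levels were 2.88, 2.78, 2.75 and 3.84 for control shRNA, shNr2f1/2, control miRNA and miR-17. At P2 they were 2.72 and 3.43 on the shRNA arrays but -0.29 with the control miRNA and 1.03 with miR-17. So both miRNA arrays at P2 lay below the other 6. A second probe of Foxa2 repeated this, with -2.28 and -1.13 on those arrays and 0.67 to 1.70 on the others.

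Gata4, Gata6 and Sox17, transcription factors of primitive, visceral or definitive endoderm, were near the detection limit. For Sox17 the shRNA arrays read -3.35 and -3.22 at P0 and -2.62 and -3.58 at P2. The control miRNA array was dim at P0 (-4.54) where miR-17 read -2.62, and both miRNA arrays were dim at P2 (-6.96 and -7.39). A second probe of Sox17 was well above background on all 4 arrays at P0, with -4.57 for the control miRNA and -3.22 for miR-17, and dim on the same 2 arrays at P2. Gata4 read -4.25 on both shRNA arrays at P0, was dim with the control miRNA (-5.62) and read -4.44 with miR-17. At P2 it read -3.29 and -5.08 on the shRNA arrays and was dim on the miRNA arrays (-6.62 and -6.00). Gata6 was dim with the control shRNA at P0 (-4.69) and read -4.47, -3.72 and -3.40 with the other vectors. At P2 it read -3.24 and -4.02 on the shRNA arrays and was dim on the miRNA arrays (-6.51 and -5.76). Each of these genes was thus dim on the 2 arrays where Foxa2 was lowest. The shRNA arrays at P2 exceeded them by at least 4.32-fold for Sox17, 3.0-fold for Gata6 and 2.04-fold for Gata4.

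Nodal was the steadiest member, with a range of 0.90 log2 units over the 8 arrays. It read -1.65, -1.64, -2.27 and -2.24 at P0 and -1.66, -2.54, -2.06 and -1.94 at P2, in the same order of vectors, on a probe on chromosome 10 at 60887790 to 60887849. Within each passage the 2 miRNA arrays differed by at most 0.12. The lowest value was that of shNr2f1/2 at P2.

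The Lefty genes, close together on chromosome 1, did not share a pattern. Lefty1, read at 182868137 to 182868196, was -3.25, -2.81, -2.79 and -4.09 at P0 and -3.05, -3.67, -2.77 and -4.43 at P2. The 2 miR-17 arrays were the lowest, and the other 6 spanned -3.67 to -2.77. Lefty2, read at 182828893 to 182828952, was -1.55, -1.33, -0.02 and 0.67 at P0 and -2.15, -2.40, -3.43 and -2.69 at P2. Every P0 array was above every P2 array, and the miRNA arrays were highest at P0 and lowest at P2. The Lefty1 and Lefty2 probes share at most 5 bases in a row of 60. Neither probe was compared with the other gene's transcript, so cross-hybridisation between the 2 genes was not tested. Cer1, a secreted inhibitor of Nodal, BMP and Wnt made by anterior endoderm, was well above background on the control shRNA array at P2 alone (-5.15). On the other 7 it was dim, between -7.78 and -4.89.

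The comparison of passages asked whether the set changed between primary and tertiary neurospheres whatever the vector. None of the 9 tested genes was called, and all 9 estimates were below 0, with Lefty2 the nearest to a call. In limma, with vector and passage as factors and Benjamini-Hochberg adjustment over 27255 genes, 4.83% of all genes were called at an adjusted p under 0.05 (2.56% higher and 2.27% lower at P2) and 40% had an unadjusted p under 0.05. Of the calls 52.9% were higher at P2, against 62.5% with median scaling, 65.2% with quantile normalization, 30.6% with normexp, 41.8% with a trended prior and 42.0% with the filter on all 8 arrays. Lefty2 had means of -0.56 ± 1.06 at P0 and -2.67 ± 0.55 at P2 (SD, n = 4 arrays each). The estimate was -2.11 log2 units (-1.90 relative to the median gene), with SE 0.59 and an adjusted p of 0.0735 by limma, and P2 was lower in 4 of 4 vector pairs. Mixl1 differed by -2.75 (SE 1.17, adjusted p = 0.145 in limma), which as a bound is at least 1.51-fold. It passed the filter only through 2 arrays at P0, where it is high, so its passage difference is not read. Lefty2 and Mixl1 were the 2 of 9 genes whose passages did not overlap, beside 24.4% of all genes (15.2% with P2 lower). For Mixl1 the order rests on dim values and on the filter, as does its place among the 9 estimates below 0. Sox17, Foxa2 and Gata6 had estimates of -1.71, -1.34 and -0.81, T and Gata4 of -0.73 and -0.60, and Lefty1 and Nodal of -0.24 and -0.10, with adjusted p values between 0.219 and 0.796 in limma. The median of the 9 was -0.81 and that of all genes -0.21. The latter became 0.19 when arrays were scaled by their median and -0.04 after quantile normalization. Lefty1 and Nodal turned to a small positive estimate under both. Lefty2 was called under 3 alternatives, with an adjusted p of 0.0423 with normexp background correction, 0.0438 with median scaling and 0.0403 without the vector as a factor in limma. Leaving out either control shRNA array or any 1 of the miRNA-vector arrays left 0 genes called.

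The passage difference of several members depended on the vector system, which was also the column of the slide, so vector and column cannot be told apart. Foxa2 changed between P0 and P2 by -0.16 and 0.64 with the control shRNA and shNr2f1/2, and by -3.04 and -2.82 with the control miRNA and miR-17. Lefty2 changed by -0.60 and -1.07 on the shRNA side and by -3.41 and -3.35 on the miRNA side. For T the difference was 2.55 with the control shRNA and -1.58, -2.07 and -1.80 with the other vectors, so it split by 1 array and not by vector system.

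**Figure D3:**
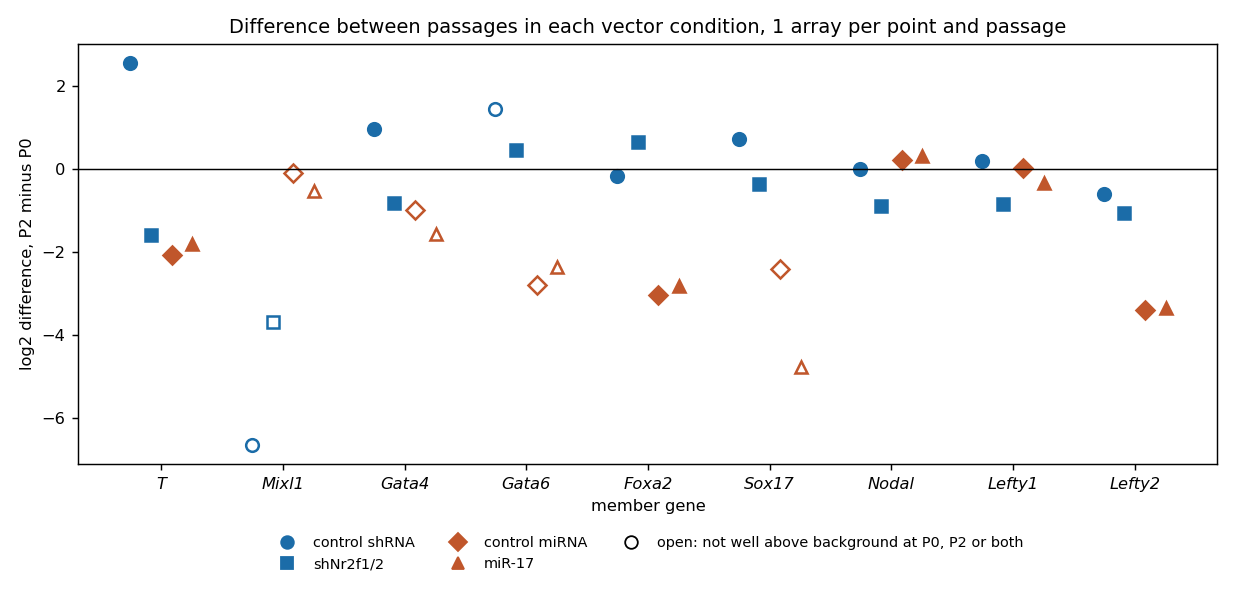
Difference in log2 level between P2 and P0 for 9 genes (Cer1 left out), 1 point per vector, blue for shRNA and orange for miRNA vectors, with open symbols where the P0 value, the P2 value or both were dim. Both orange points lie near -3 for Foxa2 and Lefty2 while the blue ones lie between -1.07 and 0.64, and for T the control shRNA stands alone above 0.

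A test of this split, added after the levels had been seen, asked whether the passage difference on the miRNA side differed from that on the shRNA side. It called 3 of the 9 genes, all lower on the miRNA side, beside 8.51% of all genes (6.73% lower and 1.78% higher, and 32.4% with an unadjusted p under 0.05). Of these calls 20.9% were higher, against 69.8% with median scaling. The difference was -3.17 for Foxa2 (SE 0.38, adjusted p = 0.0326 in limma), -2.55 for Lefty2 (SE 0.31, adjusted p = 0.0326 in limma) and -3.53 for Gata6 (SE 0.45, adjusted p = 0.0335 in limma). The Gata6 size rests on 3 dim arrays, and was -2.61 (adjusted p = 0.0412 in limma) with dim values raised to their array's lowest detectable signal. Sox17 (-3.78, adjusted p = 0.0717 in limma), Mixl1 (4.85, 0.0597), T (-2.42, 0.302) and Gata4 (-1.35, 0.246) were not called. Alternatives called Sox17 with probe means (adjusted p = 0.0457 in limma) and a trended prior (0.0492), and Mixl1 with median scaling (0.0357) and a trended prior (0.0477). With 1 array left out, the estimate for T ranged from -4.48, without either shNr2f1/2 array, to -0.35. That for Mixl1 then ranged from 3.37 to 6.33. Mixl1 passed the filter only through the shRNA arrays at P0, where it is high, so its difference is not read. Leaving out any 1 of the 4 miRNA-vector arrays ended all calls, with adjusted p values up to 0.173 for Foxa2 and Gata6 and 0.175 for Lefty2 in limma. Without the filter on dim probes the adjusted p was 0.0501 for Foxa2 and 0.0506 for Gata6 and Lefty2, and normexp correction took Gata6 to -0.81 (adjusted p = 0.127 in limma). Both miRNA arrays at P2 were below the other 6 for 5 of 9 genes (Gata4, Gata6, Foxa2, Sox17 and Lefty2), beside 19.2% of all genes, where Gata4, Gata6 and Sox17 also had a dim value among the other 6, against which the order is not measured.

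Foxa2 shared this split with genes of the floor plate. Of 9 tested floor plate and notochord genes 7 were called lower on the miRNA side, beside 6.73% of all genes. They were led by Nkx2-9 (-6.23, SE 1.09), Shh, the floor plate's secreted signal (-4.94, SE 0.43), Corin (-3.94, SE 0.52) and the axon guidance gene Slit1 (-3.66, SE 0.29). Adjusted p values lay between 0.0305 and 0.0458 in limma. The limits of this added test given above, including its dependence on single miRNA-vector arrays, hold for these genes too. At P2 the control miRNA array read below the control shRNA array by 31.8-fold for Corin, 17.1-fold for Shh, 11.5-fold for Slit1 and 10.4-fold for Ntn1, the floor plate's netrin. At P0 the same pair of arrays differed by 1.65-, 1.12-, 1.02- and 1.22-fold. Nkx2-9 was 4.04-fold higher on the control miRNA array at P0 and at least 3.23-fold lower at P2, so both passages enter its difference. Over the 8 arrays the level of Foxa2 had a Pearson r of 0.96 with Slit1, 0.92 with Shh and 0.90 with Foxa1, given as a description. Nkx2-9 was dim on both miRNA arrays at P2. In the same test, among 13 other endoderm genes, Foxa1, on both lists, was called lower (-3.15, SE 0.29). Gata5 (1.71, SE 0.27) and Afp were called higher. Of all genes 6.73% were called lower and 1.78% higher. Afp was dim on 6 arrays and passed the filter only through the shRNA arrays at P0, so its difference is not read.

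**Figure D4:**
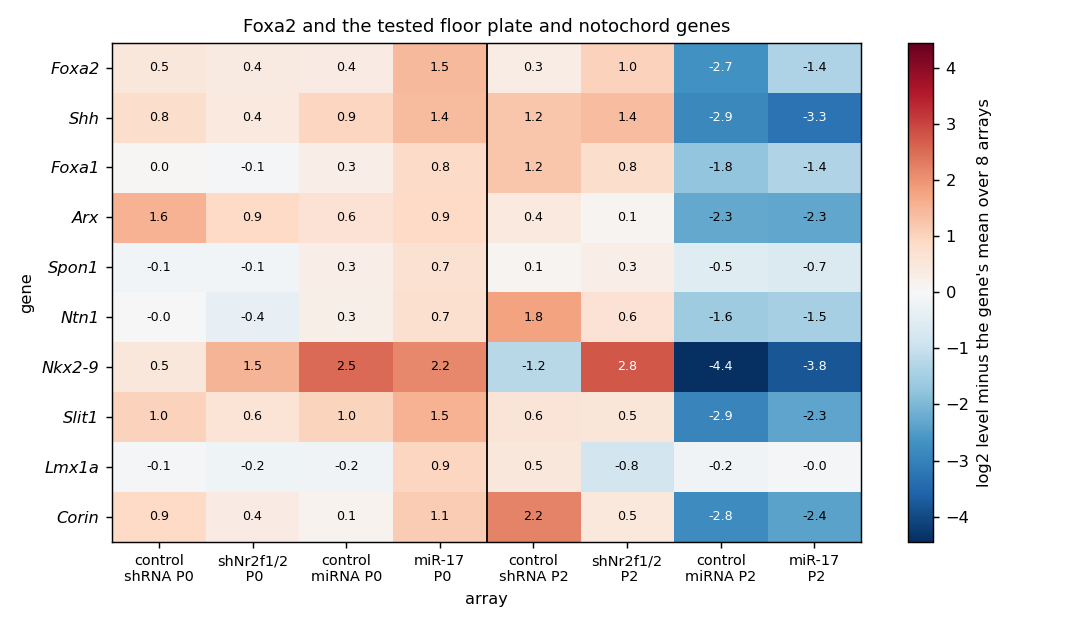
Foxa2 (top row) and the 9 tested genes of the floor plate and notochord list on the 8 arrays, as log2 level minus the gene's mean over the arrays, with the black line between P0 and P2. The last 2 columns, the miRNA arrays at P2, hold the lowest values in 8 of the 9 list genes and in Foxa2, and Lmx1a is the list gene that does not follow.

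The knockdown comparison asked which genes depended on Nr2f1 and Nr2f2, orphan nuclear receptors of early neural progenitors. Nr2f1 was 42.2% lower on the knockdown than on the control shRNA array at P0 and 55.6% lower at P2, and Nr2f2 was 29.6% and 46.4% lower. Over both passages limma called 0 genes of any kind (522, or 1.92%, had an unadjusted p under 0.05), hence 0% of all genes and none of the 9. Its interaction with passage, and that of miR-17, had 0 calls as well in limma, with 3.98% and 1.09% of genes at an unadjusted p under 0.05. T had the largest estimate of the set, -1.72 (SE 1.20, adjusted p = 0.999 in limma), and without the control shRNA array at P2 it was 0.47. On single arrays, for which there is no replicate check, 1 of 9 measured genes differed at least 2-fold at P0 beside 4.05% of all genes (3.23% higher and 0.822% lower), and 2 of 8 at P2 beside 18.5%. At P0 this was Mixl1, described above. At P2 T was 13.8-fold lower and Gata4 3.46-fold lower with shNr2f1/2. Foxa2 was 1.63-fold higher, and Nodal, Sox17, Gata6 and Lefty1 were 1.53- to 1.96-fold lower. Cer1, not tested, was at least 1.54-fold lower.

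At P2 some mesoderm genes were higher on the knockdown array, where T was lower. Of 13 measured primitive streak and mesoderm genes 4 were at least 2-fold higher there and 1 was lower by measured values, beside 8.69% and 9.81% of all genes, and the list's median difference was 0.09. Fgf8, a growth factor of the streak and of neural signalling centres, was 50.8-fold higher and Tbx3 11.9-fold. Of 7 measured heart mesoderm genes 2 were at least 2-fold higher with dim values taken as bounds, beside 7.44% of all genes. They were Isl1, which motor neurons also express (28.7-fold), and Hand2 (13.03-fold). Tbx5, dim on the control array, was at least 1.68-fold higher. None of these differences was present to this extent at P0, where the same genes differed by -0.58 to 1.32 log2 units.

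**Figure D5:**
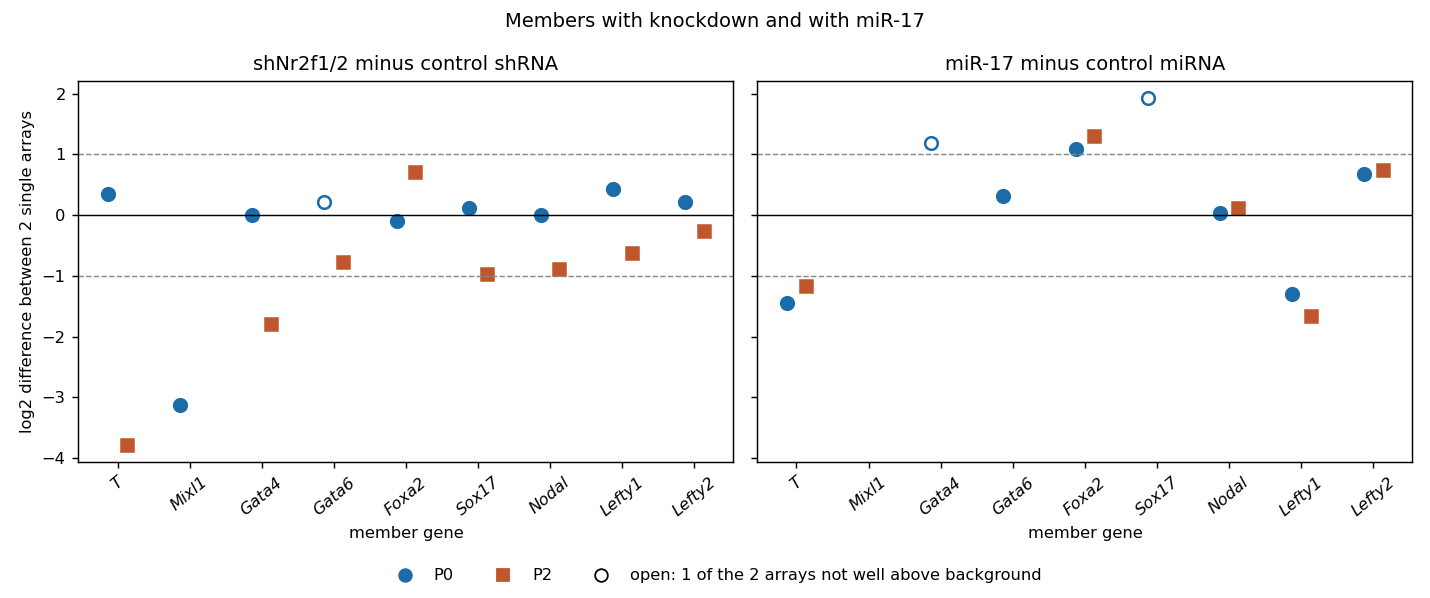
Log2 difference of the knockdown from the control shRNA array (left) and of the miR-17 from the control miRNA array (right) for 9 genes, circles for P0 and squares for P2, each from 2 single arrays. Dashed lines mark 2-fold, open symbols have 1 dim array, and pairs with both arrays dim are not drawn. On the right Lefty1 and T lie below the lower line, and Foxa2 above the upper line, at both passages.

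The miR-17 comparison asked what the miRNA changed against a control miRNA. Again limma called 0 genes over both passages (271, or 0.994%, had an unadjusted p under 0.05), that is 0% of all genes and none of the 9. Lefty1 differed by -1.48 (SE 0.34, adjusted p = 0.9998 in limma) and Foxa2 by 1.20 (SE 1.03). On single arrays 5 of 8 measured genes differed 2-fold or more by measured values at P0, beside 5.84% of all genes (4.11% higher and 1.72% lower), and 3 of 5 at P2, beside 4.47% (3.32% and 1.15%). With dim values taken as bounds these were 4 of 8, beside 4.46%, and 3 of 5, beside 2.45%. Lefty1 was lower with miR-17, 2.46-fold at P0 and 3.15-fold at P2. T was lower as well, 2.71-fold and 2.25-fold, and Foxa2 was higher, 2.13-fold and 2.48-fold. These 3 kept their direction at both passages. At P0 Gata4, dim on the control array, was at least 1.34-fold higher. Sox17 was at least 3.80-fold higher on the probe used, dim there on the control array, and 2.55-fold on its second probe, which was well above background on both. Lefty2 was 1.61-fold and 1.67-fold higher, and Nodal 1.02-fold and 1.09-fold higher.

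A 2-fold lower level with miR-17 at both passages was found for 11 of 27255 genes (0.0404%), of which Lefty1 and T are members of the set. Both miR-17 arrays were below the other 6 for 224 genes (0.822%), Lefty1 among them. These shares were looked up after the levels were seen. With normexp background correction, which compresses weak signals, the Lefty1 difference shrank to -0.54 at P0 and -0.90 at P2, under 2-fold at both. Only 1 member of the whole set was then past 2-fold at each passage. The control miRNA array is shared by the miR-17 comparison and the comparison of vectors below, and the control shRNA array by the knockdown and the vectors.

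The control arrays gave the background between vector systems, free of knockdown and of miR-17. At P0 5 of 9 measured genes differed 2-fold or more by measured values beside 20.9% of all genes (16.2% higher and 4.74% lower), and 4 with dim values taken as bounds, beside 17.4%. T was 3.01-fold and Lefty2 2.89-fold higher with the control miRNA, and Mixl1, Sox17 and Gata4 were at least 13.5-, 2.29- and 1.52-fold lower. Mixl1 passed the filter only through the shRNA arrays at P0, so its place in this count is not read. The second probe of Sox17 was 1.33-fold lower. At P2 6 of 8 differed, all lower with the control miRNA, beside 24.2% of all genes (10.1% higher and 14.1% lower), and 6 as bounds too, beside 21.4%. T was 8.15-fold, Foxa2 8.03-fold and Lefty2 2.43-fold lower, and Sox17, Gata6 and Gata4 were at least 5.22-, 3.39- and 3.28-fold lower. Lefty1 differed by 0.45 and 0.28 and Nodal by -0.62 and -0.40 log2 units at P0 and P2. For T and for Foxa2 at P2 the vector difference was thus larger than that with miR-17. Neither has a replicate.

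Among other genes of the pathway, 1 of 20 tested was called with passage, a share close to the 4.83% of all genes. Of 20 tested pathway genes 7 had an estimate of 2-fold or more, beside 29.3% of all genes. Of 10 receptors, coreceptors and ligand partners 1 rose, Pcsk6, a convertase that cleaves TGF-beta family precursors (1.62, SE 0.27, adjusted p = 0.0447 in limma), and 0 fell. The receptor gene Acvr2b had an estimate of -2.33 (SE 0.46, adjusted p = 0.0531 in limma). None of 6 transducers was called (Smad2, Smad3, Smad4, Foxh1, Tgif1 and Skil), with estimates of -0.74 to -0.05. None of 4 tested inhibitors was called either. The added vector test, which called 8.51% of all genes, called Fst (follistatin) and Ltbp1 lower on the miRNA side (-2.37, SE 0.33, and -2.60, SE 0.27). It called Smad7 higher (1.48, SE 0.27). Of the 10 receptors, coreceptors and ligand partners it called 2 lower and 1 higher, and of the 6 transducers 0. The 2 lower were the coreceptor gene Tdgf1 (-2.25, SE 0.30) and the receptor gene Acvr1c (-4.61, SE 0.65), the latter well above background on only 4 arrays. These were the miRNA arrays at P0 and the shRNA arrays at P2, the groups whose higher values make its difference negative. Acvr1c passed the filter only through them, so its difference and its place in this count are not read.

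Among streak genes outside the set, 2 of 13 were called lower with passage, beside 2.27% of all genes. Lhx1 fell by 3.68 (SE 0.32, adjusted p = 0.0305 in limma) and Eomes, a T-box factor of the streak that is also made in cortical progenitors, by 3.37 (SE 0.44, adjusted p = 0.0362 in limma). Of 12 pluripotency genes 4 fell (Nr0b1, Zfp42, Fgf4 and Esrrb, with differences of -3.95, -3.62, -2.67 and -2.51), beside the same 2.27%. Of these only Esrrb was well above background on every array. At P2 Nr0b1, Zfp42 and Fgf4 were dim on both miRNA arrays, and Zfp42 on the shNr2f1/2 array too. Fgf4 was also dim on the miR-17 array at P0. The sizes for Nr0b1, Zfp42 and Fgf4 thus rest in part on dim values. Klf4 rose by 1.28, where 2.56% of all genes were called higher. The adjusted p values of these pluripotency genes lay between 0.0307 and 0.0471 in limma. None of 13 other endoderm genes, 8 heart genes or 9 floor plate genes was called with passage. The endoderm and streak lists contain genes that neural tissue also expresses, and a list's count says nothing of the cell that made the RNA.

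Genes whose levels ran most closely with each member were found among 4805 genes well above background on at least 4 arrays and spanning at least 2 log2 units. The 8 arrays share vectors and passages, so r is a description. Dim values enter r as they stand, and Gata4, Gata6 and Sox17 were each well above background on only 5 arrays. Foxa2 ran with Gfra1 (r = 0.99), a GDNF coreceptor, and then with Srrm3 and Unc13c (both 0.98). Lefty2 ran with Cpb2, Rnf39 and Defb26 (0.99 each), Gata6 with Tmem28 and Foxa1 (0.97 each) and Cntn4 (0.97), Sox17 with Sv2b, Mageb16 (0.97 each) and Slit2 (0.96), and Gata4 with Scg2, Vsig2 (0.98 each) and Slc1a6 (0.96). Nodal ran with Cox6a2 (0.94), Ankef1 (0.92) and Spp1 (0.91). T ran with Kirrel2 (0.88), with Cfc1, which encodes the Nodal coreceptor Cryptic (0.87), and with Defa-rs7 (0.87). Cfc1 was highest where T was, on the control shRNA array at P2 (-2.82), and 6.46-fold lower on the knockdown array of that passage. It was well above background on only 4 arrays. Lefty1 had no close companion, its best being Bmp8b (0.80), Lyar (0.73) and Nr2e1 (0.68). Between the ligand and its inhibitors r was 0.29 for Nodal with Lefty1, -0.17 for Nodal with Lefty2, and -0.07 for Lefty1 with Lefty2.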

How the data were processed

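Cy3-labelled total RNA of 8 neurosphere cultures (50 ng each) was hybridised to Agilent mouse arrays on a single slide. The authors deposited scanner output with an intensity per spot, already background-subtracted and detrended, as the file headers say, by Feature Extraction 10.7.3.1. They also deposited a signal table, found here to be the same intensity over a constant for each array (481 to 949). It is linear and not centred by gene, its column medians were 0.0662 to 0.124, and the basis of the constants is unknown. Probe positions are mm9, per the file headers, and the exon or UTR they lie in was not analysed here.

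From the deposited intensity, log2 values minus each array's log2 75th percentile were computed, without control spots and 1104 outlier spots. Probes had to be well above background on 2 or more of 8 arrays, and a gene's probe of highest mean stood for it. Models were fitted in limma 3.58.1 (R 4.3.3), two-sided, with Benjamini-Hochberg adjustment over 27255 genes. They held vector and passage (3 residual degrees of freedom), the interactions of knockdown and miR-17 with passage (1), or vector system by passage (2, added after the data were seen). The fits were tested on simulated data. Single arrays were compared at 2-fold over genes well above background on at least 1 of the pair. The number of arrays limits the precision.

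The 10 members and 9 other gene lists (96 genes, 82 tested) were chosen with earlier results of these data known. Named were all members, up to 4 genes per list by size of difference, the 3 genes of highest correlation for each member well above background on at least 4 arrays, and the knockdown's targets. Over the 8 arrays, a second probe correlated with the one used at 0.93 or more for Eomes, Fgf8, Foxa2, Lhx1, Ntn1, Skil and Sox17, but at 0.80 for Dppa4, 0.71 for Smad4, 0.59 for Sox1 and 0.58 for Smad3, and lower for list genes that are counted but not described (-0.55 for Msi1, -0.07 for Kdr, 0.12 for Myh6). Mature miRNAs are from RefSeq. Alternatives were normexp correction (offset 50), quantile normalization, median scaling, the authors' signal table, other filters, probe means, a trended prior, no vector factor, arrays left out, limits of 1.5- and 3-fold and, added later, dim values raised to the array's floor. A result that was withheld is not reported here.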

Additional observations from a re-analysis of the deposited data

Results flagged for a closer look

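In 3 genes the passage difference depended on the vector system, in a limma test added after the levels had been seen. The passage difference on the miRNA-vector arrays minus that on the shRNA-vector arrays was -3.53 log2 units for Gata6 (adjusted p = 0.0335 in limma), -3.17 for Foxa2 (0.0326) and -2.55 for Lefty2 (0.0326), beside 8.51% of all genes called.

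In 2 of 20 groups of 4 arrays (10 genes at 2 passages), 1 array stood apart by the ratio of its gap to the group's range, above Dixon's critical value, which chance exceeds in about 1 in 20 groups. At P0 the ratio was 0.883 for Foxa2, with the miR-17 array highest, and 0.865 for Gata4, with the dim control miRNA array lowest. With that dim value raised to the array's floor the Gata4 ratio was 0.695, under the critical value, so its gap rests on a value that was not measurable.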

How the results depend on the processing

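The fit of passage called 1317 genes, and 7066 with normexp, 3855 with median scaling, 3691 with the filter on all 8 arrays, 4303 with a trended prior, 3929 without the vector factor, 2256 with dim values at the floor, and 0 to 4786 with 1 array left out. The cause was not tested. Of the calls 52.9% were higher at P2, against 30.6% with normexp, 65.2% with quantile normalization, 62.5% with median scaling, 42.0% with the filter on all 8 arrays and 41.8% with the trended prior. Members called with passage rose from 0 to 1 (Lefty2) with normexp, median scaling and no vector factor. Nodal's estimate turned to 0.13 with quantile normalization and 0.30 with median scaling, and ranged from -0.23 to 0.17 with 1 array left out. Lefty1's turned to 0.18 and 0.16. The knockdown estimate of T ranged from -3.90 to 0.47 with 1 array left out.

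The vector-by-passage test called 2319 genes, and 5319 with median scaling, 524 with no filter, 3751 with a trended prior and 0 to 3388 with 1 array left out. Its share of higher calls was 20.9%, against 47.6% with normexp, 69.8% with median scaling, 42.5% with the filter on all 8 arrays and 38.8% with a trended prior. Members called were 3, but 0 with no filter, 5 with a trended prior, and 0 to 5 with 1 array left out, when Lefty1's estimate ranged from -0.35 to 0.70. Median scaling called 173 genes for knockdown by passage and 4 for miR-17 by passage, against 0.

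Members past 2-fold on single arrays, given as knockdown at P0 and P2, miR-17 at P0 and P2, and control vectors at P0 and P2, were 1, 2, 5, 3, 5 and 6 by measured values. With normexp, knockdown at P2 became 1, miR-17 became 1 at both passages and control vectors 3 at both. With the filter on all 8 arrays, which leaves 5 members, knockdown became 0 and 1, miR-17 at P0 became 3, and control vectors 2 and 3. Median scaling gave 3 for miR-17 at P0. The 1.5-fold limit gave 7 for the knockdown at P2, and the 3-fold limit 1, 1 and 2 for miR-17 at P0 and P2 and control vectors at P0. Interaction terms of knockdown and miR-17 leave no residual with 1 array out, so those settings gave no value. Gata4, Gata6, Sox17, Mixl1 and Cer1 are limited by signal over background. The labels carry no replicate numbers; the passage fit pairs the 2 arrays of each vector through the vector factor, and without that pairing 3929 genes and 1 member were called.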
